A study of Rattus norvegicus with 35 samples.

Results

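The 10 genes described here make, conjugate, move or sense bile acids in the liver: Cyp7a1, Cyp8b1, Cyp27a1, Cyp7b1, Baat, Nr0b2, Nr1h4, Abcb11, Abcb4 and Slc10a1. They were chosen by name. Each had 1 probe set annotated to it alone, giving 10 of the 31042 non-control probe sets on the arrays, or 10 of 14217 genes with such a probe set. The livers came from male Harlan Sprague Dawley rats that were 7 weeks old when dosing began and received BTBPE in corn oil by gavage on 5 consecutive days, with necropsy 1 day after the last dose. BTBPE, 1,2-bis(tribromophenoxy)ethane or Firemaster 680, is a brominated flame retardant. The groups received corn oil alone (vehicle, 6 rats) or BTBPE at 0.07, 0.69, 6.88 or 680 mg/kg (6 rats each) or 68 mg/kg (5 rats). All rats shared the gavage volume of 5 ml/kg, the corn oil and the diet, and each of the 35 arrays measured RNA from the left liver lobe of 1 rat. Alb, Ttr, Apoa1 and the other hepatocyte markers looked up, 10 of 10, were above the middle of the array in mean level.

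Bile acids are made from cholesterol in hepatocytes. In the classical pathway Cyp7a1 adds the first hydroxyl group and sets the rate, and Cyp8b1 then decides how much cholic acid is made. Cyp27a1 and Cyp7b1 serve the alternative pathway. Bile acids returning to the liver activate the nuclear receptor FXR, the product of Nr1h4, which induces the repressor SHP, the product of Nr0b2, and SHP holds down Cyp7a1 and Cyp8b1. Cyp7a1 mRNA in rat liver is also known to vary with time of day and feeding.

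RefSeq promoters of build GRCr8 were matched for 6 of the 10 genes, Cyp8b1, Cyp27a1, Nr0b2, Abcb4, Slc10a1 and Baat. Each window runs from 250 bases before the annotated start to 50 after it. The 3 shown are those of the enzyme that varied with Cyp7a1, the repressor that varied most between rats after Cyp7a1, and the bile acid importer that varied least. Cyp8b1 lies at chr8:130457543-130457842 on the minus strand, Nr0b2 at chr5:151062910-151063209 on the plus strand and Slc10a1 at chr6:106357895-106358194 on the minus strand. Capitals mark the motifs found.
Cyp8b1: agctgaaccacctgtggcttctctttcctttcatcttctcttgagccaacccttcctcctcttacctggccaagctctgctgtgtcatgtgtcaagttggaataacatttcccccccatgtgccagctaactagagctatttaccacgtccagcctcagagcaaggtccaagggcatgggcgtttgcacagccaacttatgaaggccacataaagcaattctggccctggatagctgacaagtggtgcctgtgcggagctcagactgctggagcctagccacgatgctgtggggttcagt
Nr0b2: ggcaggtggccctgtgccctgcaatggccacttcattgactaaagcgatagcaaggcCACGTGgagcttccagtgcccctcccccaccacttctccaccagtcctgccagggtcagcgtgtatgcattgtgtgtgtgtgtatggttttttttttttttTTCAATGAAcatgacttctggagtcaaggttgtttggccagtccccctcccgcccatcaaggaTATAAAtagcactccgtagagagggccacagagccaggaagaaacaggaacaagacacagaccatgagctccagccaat
Slc10a1: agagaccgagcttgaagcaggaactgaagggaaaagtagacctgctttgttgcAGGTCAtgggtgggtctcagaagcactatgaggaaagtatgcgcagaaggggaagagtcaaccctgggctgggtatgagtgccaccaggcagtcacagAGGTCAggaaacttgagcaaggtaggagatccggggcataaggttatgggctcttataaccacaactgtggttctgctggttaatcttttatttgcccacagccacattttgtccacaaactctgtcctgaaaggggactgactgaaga
The letters searched on both strands were the nuclear receptor half-site AGGTCA, held by 16.2% of 33469 promoters of this length, and the inverted repeat AGGTCANTGACCT read by FXR, which contains that half-site and was held by 0.0269%. The others were the LRH-1 site TCAAGGNC (4.13%), the HNF4 core CAAAGNCCA (1.81%), the E-box CACGTG bound by BHLHE40 (6.42%), the site TTCNNNGAA shared by BCL6 and STAT factors (8.87%), the T-box site AGGTGTGA (1.10%) and the TATA box TATAAA (14.2%). Slc10a1 held AGGTCA at positions -197 to -192 and -99 to -94, counted from -1 for the base before the start. Nr0b2 held CACGTG at -193 to -188, TTCNNNGAA at -92 to -84 and TATAAA at -29 to -24. None of these letters was found in the Cyp8b1 window. Only exact matches were counted, so sites that differ from the letters by a base were not looked for. Outside the sequences shown, Abcb4 and Baat each held 1 CAAAGNCCA, Baat also held 1 TTCNNNGAA, and Cyp27a1 held 2 copies of AGGTCA.

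Cyp7a1, the rate-limiting enzyme, differed more between rats of one dose than between doses. On the log2 RMA scale its lowest, median and highest levels were 9.41, 11.04 and 11.58 in vehicle rats, 9.39, 11.38 and 11.47 at 0.07 mg/kg, and 9.58, 10.58 and 11.71 at 0.69 mg/kg. At 6.88 mg/kg they were 9.95, 10.37 and 11.25, and at 680 mg/kg 9.59, 10.12 and 10.97. The 5 rats at 68 mg/kg read 9.52, 10.83, 11.03, 11.37 and 11.70. Vehicle, 0.07 mg/kg and 68 mg/kg each held 1 rat well below the next lowest of its group, and every dose overlapped vehicle. The rats of the whole series spanned 9.39 to 11.71, or 4.99-fold, and the vehicle rats alone spanned 4.48-fold. The order of the group means, from 0.07 mg/kg (11.00 ± 0.81, SD, n = 6) through 68 mg/kg, vehicle, 0.69 and 6.88 mg/kg to 680 mg/kg (10.23 ± 0.58, SD, n = 6), did not follow dose, and no neighbours in it differed by more than the SD among rats of one group, 0.74.

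**Figure D1:**
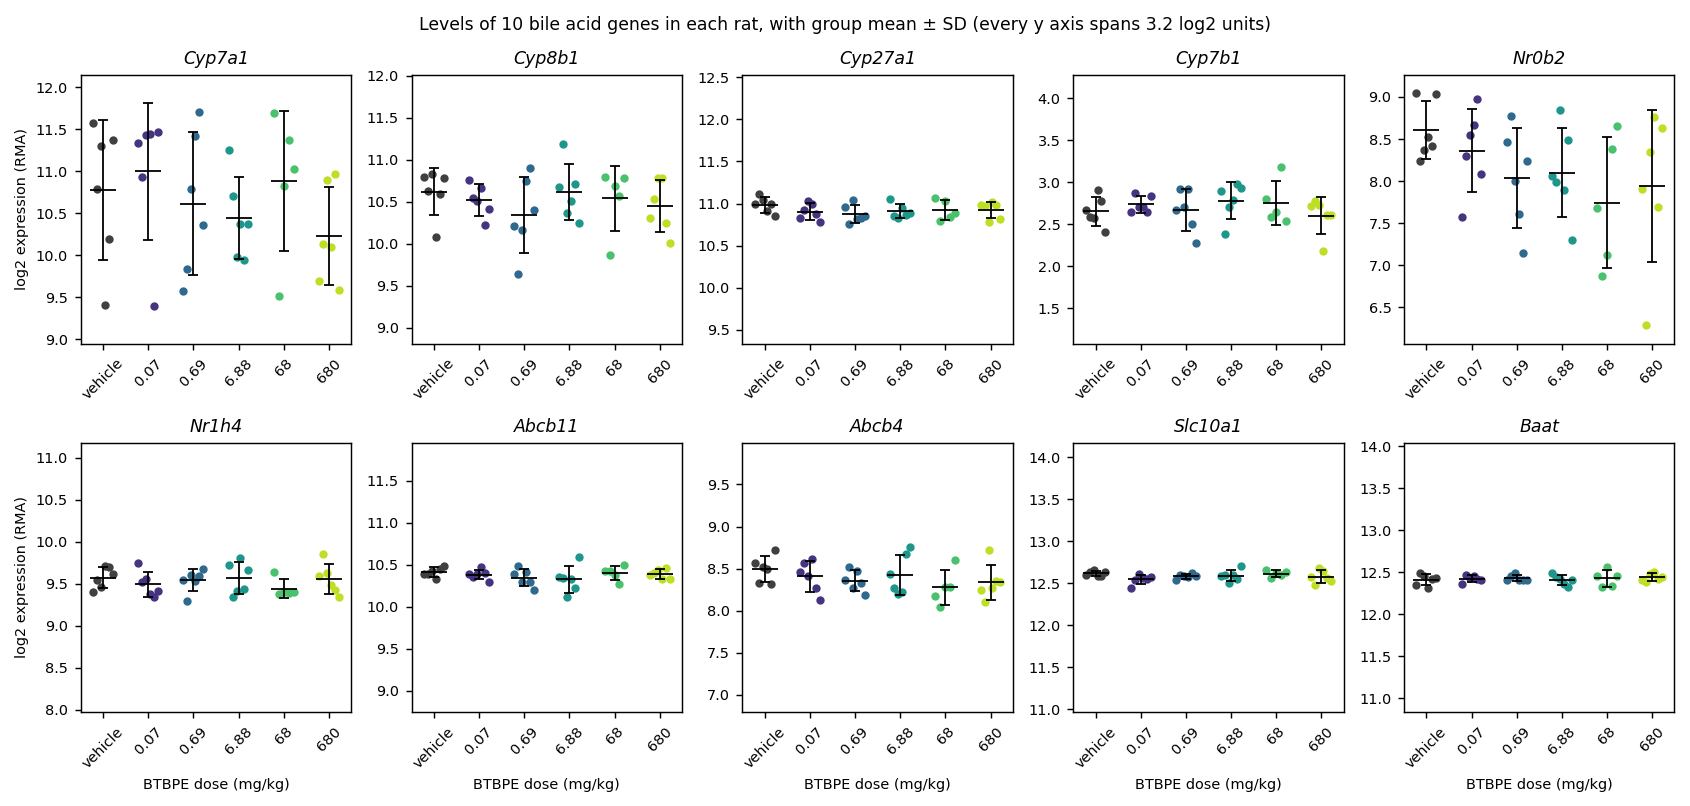
Log2 expression of the 10 genes (y axes, each spanning the same number of log2 units) in every rat, by BTBPE dose in mg/kg with vehicle at the left; points are rats, and bars are the group mean and SD. Cyp7a1 spread over 9.39 to 11.71 and Nr0b2 over 6.29 to 9.04, while Slc10a1 stayed within 12.44 to 12.70, and the doses overlapped vehicle for each gene.

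The SD among rats of one group, pooled over the 6 groups, placed Cyp7a1 at rank 51 of 31042 probe sets from the most variable. Nr0b2 followed at rank 94 with an SD of 0.63, and Cyp8b1 at rank 694 with 0.33. The median over all probe sets was 0.14. Abcb4 and Nr1h4, with SDs of 0.19 and 0.15, lay above that median, as did Cyp7b1 with 0.21. Cyp7b1 averaged 2.70, below the median of every array, so its spread is that of a dim probe set. Cyp27a1, Abcb11, Baat and Slc10a1 lay below it, with SDs of 0.099, 0.093, 0.060 and 0.053. Slc10a1, the sodium-dependent importer of bile acids from portal blood, ranked 30871, among the least variable probe sets of the array. It averaged 12.59, above 99.7% of probe sets in mean level, and Baat averaged 12.42, above 99.6%. How far spread depends on level among bright probe sets was not tested.

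Cyp8b1, which directs synthesis to cholic acid, read 10.08, 10.70 and 10.83 as lowest, median and highest in vehicle rats, 10.22, 10.52 and 10.76 at 0.07 mg/kg, and 9.64, 10.30 and 10.90 at 0.69 mg/kg. At 6.88 mg/kg it read 10.25, 10.60 and 11.18, and at 680 mg/kg 10.01, 10.42 and 10.78. The 5 rats at 68 mg/kg read 9.87, 10.57, 10.69, 10.78 and 10.80. One rat stood below the rest in the vehicle group and 1 at 68 mg/kg, and all doses overlapped vehicle. The dose means fell between 0.827-fold of vehicle at 0.69 mg/kg (95% interval 0.643 to 1.06) and 0.998-fold at 6.88 mg/kg (0.776 to 1.28).

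Cyp27a1, a mitochondrial sterol hydroxylase, was within 10.76 to 11.11 in all rats. Its dose means lay between 0.928-fold and 0.960-fold of vehicle, below it at each dose, with every interval including no change. Cyp7b1, the oxysterol hydroxylase, had dose means between 0.966-fold and 1.09-fold of vehicle at its low level. Baat, the enzyme that joins bile acids to glycine or taurine, was within 12.32 to 12.56 and had dose means between 0.999-fold and 1.02-fold of vehicle. Within the 95% intervals, Baat could have differed from vehicle by 0.939-fold to 1.09-fold at most.

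Nr0b2, the SHP repressor, had the lowest mean in dosed rats relative to vehicle of the 10 genes. Vehicle rats read 8.24, 8.47 and 9.04 as lowest, median and highest, against which rats read 7.57, 8.42 and 8.98 at 0.07 mg/kg, 7.14, 8.12 and 8.77 at 0.69 mg/kg and 7.30, 8.03 and 8.85 at 6.88 mg/kg. At 680 mg/kg they read 6.29, 8.12 and 8.77, and the 5 rats at 68 mg/kg read 6.87, 7.12, 7.69, 8.39 and 8.66. Low rats appeared at each dose and none of the 6 vehicle rats was below 8.24, while the upper ends of the ranges overlapped. The dose means were 0.843, 0.675, 0.704, 0.550 and 0.629 of vehicle from the lowest dose to the highest. At 68 mg/kg the 95% interval was 0.335 to 0.903 and the unadjusted limma p 0.0196, with an adjusted p of 0.999, and 4 of 5 rats were below the vehicle mean. Along dose rank Nr0b2 changed by -0.14 ± 0.06 log2 units per step (SE), with an unadjusted limma p of 0.0134 and an adjusted p of 0.900. Of all 31042 probe sets, 1596 had an unadjusted limma p under 0.05 along dose rank. Nr0b2 did not pass the test at any dose or along dose. Its deviations from the group means moved with the array medians (r = 0.46, permutation p = 0.0031, n = 35), and the part of that in the dose differences was not tested. Liver lobes are bulk tissue, in which fewer cells of a type and less RNA per cell cannot be told apart.

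Nr1h4, which encodes FXR, had dose means between 0.913-fold and 0.995-fold of vehicle. Abcb11, the bile salt export pump, lay between 0.941-fold and 0.990-fold, and Slc10a1 between 0.952-fold and 0.999-fold. All 6 rats at 0.07 mg/kg were below the vehicle mean for Slc10a1, at 0.952-fold (interval 0.898 to 1.01), with ranges of 12.44 to 12.60 at 0.07 mg/kg and 12.59 to 12.65 in vehicle rats. Abcb4, the phospholipid exporter of the canalicular membrane, lay between 0.860-fold at 68 mg/kg (0.737 to 1.00) and 0.954-fold at 6.88 mg/kg.

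No probe set of the array passed an adjusted p of 0.05 in limma at any dose, along dose rank or in the test over all doses (0% of 31042 called in each), and 0 of the 50 comparisons of a member with vehicle did. At an unadjusted p under 0.05 there were 1130, 981, 1438, 1205 and 1538 probe sets from the lowest dose to the highest, and among the 10 genes only Nr0b2 at 68 mg/kg. Of the 10 genes, 7, 8, 9, 7 and 9 had a mean below vehicle from the lowest dose to the highest, with median log2 differences of -0.07, -0.09, -0.05, -0.04 and -0.05. Of all 14217 genes 7024, 7571, 7535, 6871 and 6954 were below. The counts take in very small differences, such as -0.002 for Cyp8b1 and -0.001 for Baat at 6.88 mg/kg. All 5 doses shared the same 6 vehicle rats. No member had a range apart from that of vehicle at any dose, where 0.164%, 0.151%, 0.2%, 0.332% and 0.187% of all probe sets did. For 7 of the 50 comparisons, 3 of Cyp7a1 and 4 of Nr0b2, the 95% interval took in a change of at least 2-fold. The intervals of the others did not.

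**Figure D2:**
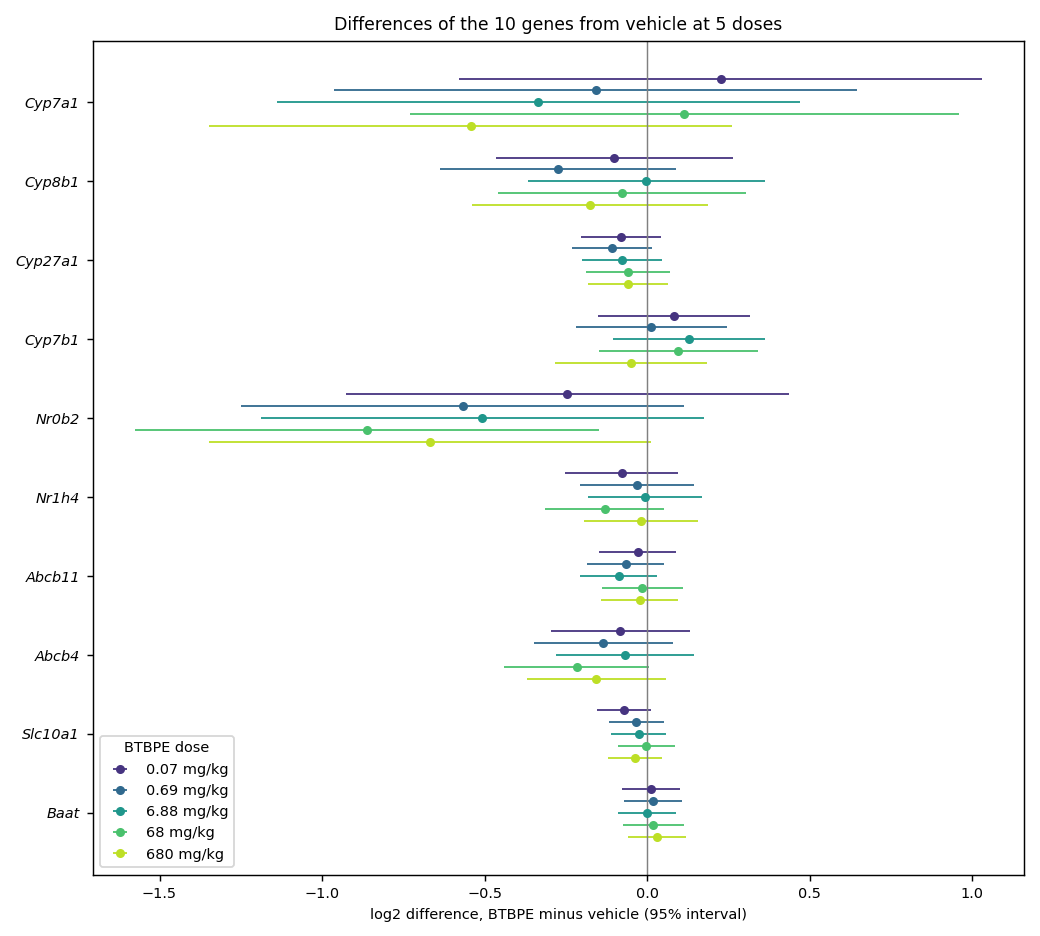
Log2 difference of each gene (rows) between each BTBPE dose and vehicle (x axis, log2 units), with 95% intervals from limma, coloured by dose. Of 50 intervals, 49 include no change, the exception being Nr0b2 at 68 mg/kg, and those of Cyp7a1 and Nr0b2 are the widest.

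The wider pathway was described with 3 longer lists. Of 21 genes of bile acid synthesis, 9, 7, 8, 10 and 8 were above vehicle from the lowest dose to the highest, against 7193, 6646, 6682, 7346 and 7263 of all 14217 genes. Of 20 genes of bile acid and bile lipid transport 8, 6, 6, 5 and 8 were above vehicle, and of 18 regulators 9, 6, 9, 8 and 7. None of these genes was called by limma. An unadjusted p under 0.05 was found in 2 of 105 comparisons for synthesis (1.9%), 5 of 100 for transport (5%) and 10 of 90 for the regulators (11.1%), against 2604 of 71085 over all genes (3.66%). Clock genes gave 12 of 90 (13.3%), fasting genes 10 of 75 (13.3%), cholesterol genes 1 of 80 (1.25%) and acute phase genes 0 of 90. The 5 comparisons of a gene share the vehicle rats, so these counts are not independent.
The synthesis genes of smallest p were Star, a dim probe set averaging 3.80, and Cyp27a1 at 0.07 mg/kg (log2 differences 0.25 and -0.08). At 0.69 mg/kg they were Hsd17b4 and Cyp27a1 (-0.10 and -0.11), and at 6.88 mg/kg Star and Slc27a5 (0.17 and -0.11). At 68 mg/kg they were Slc27a5, a bile acid CoA ligase, and Stard5 (-0.13 and 0.12), and at 680 mg/kg Stard5 and Akr1c14 (0.15 and -0.10). Among transporters they were Slc10a1 and Abcb1a at 0.07 mg/kg (-0.07 and -0.15), Slco1a4 and Abcc2 at 0.69 mg/kg (-0.18 and 0.17) and Atp8b1 and Abcb1a at 6.88 mg/kg (0.19 and -0.21). Abcb4 and Slc22a7 followed at 68 mg/kg (-0.22 and -0.07), and Abcb1a and Abcc3, an exporter to the blood side, at 680 mg/kg (-0.23 and -0.25). Among regulators they were Gps2 and Zbtb7a at 0.07 mg/kg (0.20 and -0.07), Mafg and Zbtb7a at 0.69 mg/kg (-0.17 and -0.10) and Nr5a2 and Mafg at 6.88 mg/kg (-0.22 and -0.21). At 68 mg/kg they were Nr0b2 and Zbtb7a (-0.86 and -0.11), and at 680 mg/kg Zbtb7a and Foxo1 (-0.14 and -0.17).

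The spread of Cyp7a1 among rats of one dose allowed a comparison that does not use dose. For each rat the deviation of Cyp7a1 from its group mean was set against the deviation of every other probe set, in a limma fit that kept a mean for each group. Of 31041 other probe sets, 450 passed an adjusted p of 0.05 (1.45%), 233 rising with Cyp7a1 (0.751%) and 217 falling (0.699%). Of the other 9 genes 1 was called, Cyp8b1.

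Cyp8b1 rose with Cyp7a1 by 0.32 ± 0.06 log2 units per log2 unit of Cyp7a1 (SE, adjusted p = 0.0010, limma). Over the 35 rats the deviations gave Pearson r = 0.71 (permutation p = 6.0e-05) and Spearman rho = 0.66 (permutation p = 2.1e-04), and r = 0.66 without the 2 rats farthest from the median. Vehicle replicate 4, with Cyp7a1 at 9.41, and replicate 2 at 68 mg/kg, with Cyp7a1 at 9.52, also had the lowest Cyp8b1 of their groups, 10.08 and 9.87. Within the groups of 6 rats r was 0.94 in vehicle, 0.73 at 0.07 mg/kg, 0.82 at 0.69 mg/kg, 0.38 at 6.88 mg/kg and 0.42 at 680 mg/kg, positive in 5 of 5. Spearman rho in those groups was 0.83, 0.14, 0.71, 0.26 and 0.37 in the same order. The exact permutation p of r was 0.0056 in vehicle and between 0.054 and 0.45 in the others. The slope did not differ detectably between the 6 groups (moderated F, adjusted p = 0.996). The 3′ minus 5′ difference of the Actb control probe sets, a measure of RNA length that ran from 1.02 to 1.37 over the arrays, moved with Cyp7a1 (r = 0.54, permutation p = 0.0015) and with Cyp8b1 (r = 0.69, permutation p = 1e-05, the smallest that 100000 permutations can give). The same difference of the Gapdh controls gave r = 0.21 with Cyp7a1 (permutation p = 0.23) and r = 0.49 with Cyp8b1 (permutation p = 0.0048). It was not put in the fit. With the Actb difference in the fit, the slope of Cyp8b1 was 0.21 and its adjusted p 0.0927, so the call was lost, and 199 probe sets were called in place of 450.

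**Figure D3:**
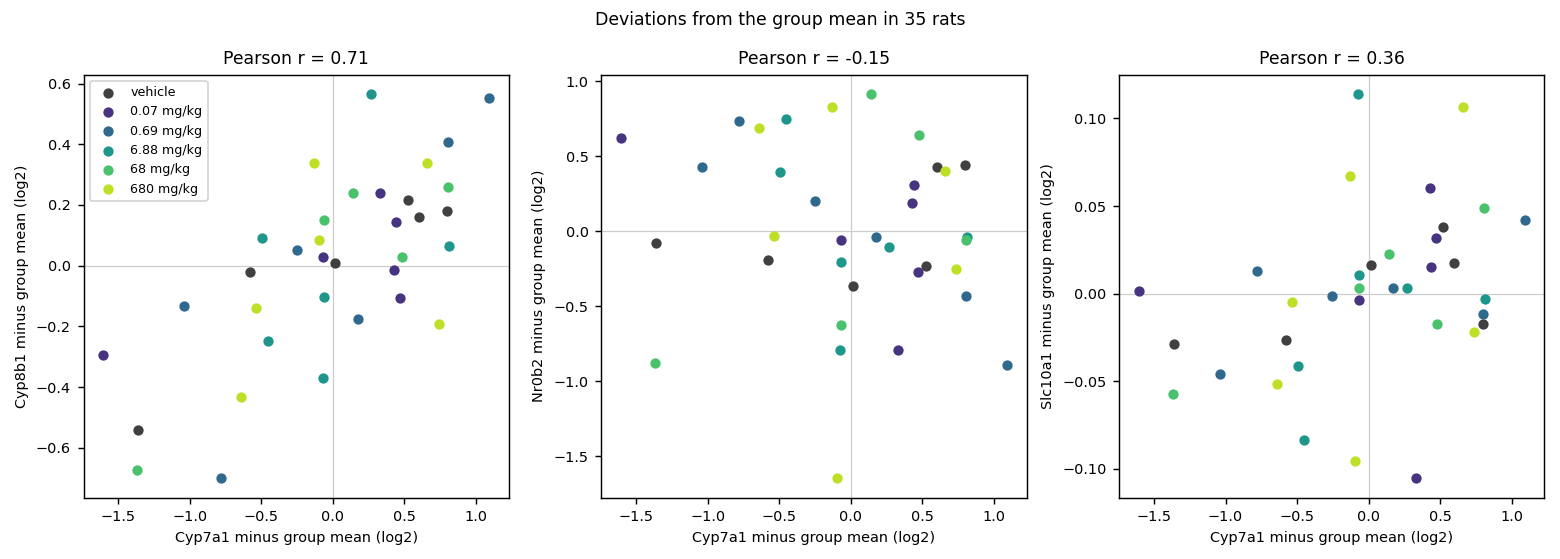
Deviation from the group mean of Cyp8b1, Nr0b2 and Slc10a1 (y axes, log2) against that of Cyp7a1 (x axes, log2) in 35 rats, coloured by dose. Cyp8b1 follows Cyp7a1 with r = 0.71, Slc10a1 with r = 0.36 over a range that is a small part of that of Cyp7a1, and Nr0b2 shows r = -0.15.

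Nr0b2 did not pass the test against Cyp7a1. Its slope was -0.13 ± 0.15 (SE, adjusted p = 0.811, limma), with r = -0.15 (permutation p = 0.41) and rho = -0.21 (permutation p = 0.27) over 35 rats, and r = -0.21 without the 2 farthest rats. At 0.69 mg/kg r was -0.95, the strongest with Cyp7a1 that any of the other genes gave in a group of 6. There the 6 rats ordered from the highest Nr0b2, 8.77, to the lowest, 7.14, had Cyp7a1 at 9.83, 9.58, 10.36, 10.79, 11.42 and 11.71. The vehicle rats went the other way, with r = 0.48, and the remaining groups of 6 gave -0.59 at 0.07 mg/kg, -0.41 at 6.88 mg/kg and -0.11 at 680 mg/kg. No r was computed for the 5 rats at 68 mg/kg. Ordered from the highest Nr0b2, 8.66, to the lowest, 6.87, they had Cyp7a1 at 11.03, 11.37, 11.70, 10.83 and 9.52, so 1 rat was lowest in both. The difference in slope between groups had an unadjusted moderated F p of 0.087 and an adjusted p of 0.945, and no probe set of 31041 was called for such a difference (0%). With the Actb difference in the fit the slope of Nr0b2 was 0.02.

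The transporters varied far less than Cyp7a1. Slc10a1 had a slope of 0.03 ± 0.02 on Cyp7a1 (SE, adjusted p = 0.635), with r = 0.36 (permutation p = 0.029) and rho = 0.41 (permutation p = 0.020) over 35 rats and r = 0.35 without the 2 farthest, and it was positive in 5 of 5 groups of 6. The unadjusted limma p of this slope was 0.157, so Slc10a1 did not pass in limma before or after adjustment. Abcb4 gave r = 0.25 (adjusted p = 0.642) and Abcb11 r = 0.10 (adjusted p = 0.906). Among the remaining genes Baat gave r = 0.27, Cyp27a1 0.19, Nr1h4 0.14 and Cyp7b1 -0.03, with adjusted p-values between 0.726 and 0.973.

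Among the 36 pairs that leave out Cyp7a1, none was called over all probe sets. The most negative r of all 45 pairs was that of Nr0b2 with Nr1h4, its activator's gene, at -0.53 (permutation p = 0.0028, rho = -0.43 with permutation p = 0.015, adjusted p of the slope 0.136, and r = -0.44 without the 2 farthest rats). Both genes moved with the array medians in opposite directions, r = 0.46 for Nr0b2 and r = -0.59 for Nr1h4, and the part of that in their r was not tested. Abcb11 and Abcb4, a pair of canalicular exporters, gave r = 0.51 (permutation p = 0.0054, rho = 0.43 with permutation p = 0.019, adjusted p 0.357), and 0.36 without the 2 farthest rats. Slc10a1 and Baat gave r = 0.45 (permutation p = 0.0068, rho = 0.54 with permutation p = 0.0021, adjusted p 0.774), and 0.46 without them. Cyp27a1 and Baat gave r = 0.48 (permutation p = 0.0095, rho = 0.44 with permutation p = 0.016, adjusted p 0.629), and 0.39 without the 2 farthest rats. Of the 45 pairs 29 were positive and 16 negative, and 7 had an unadjusted permutation p of r under 0.05.

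**Figure D4:**
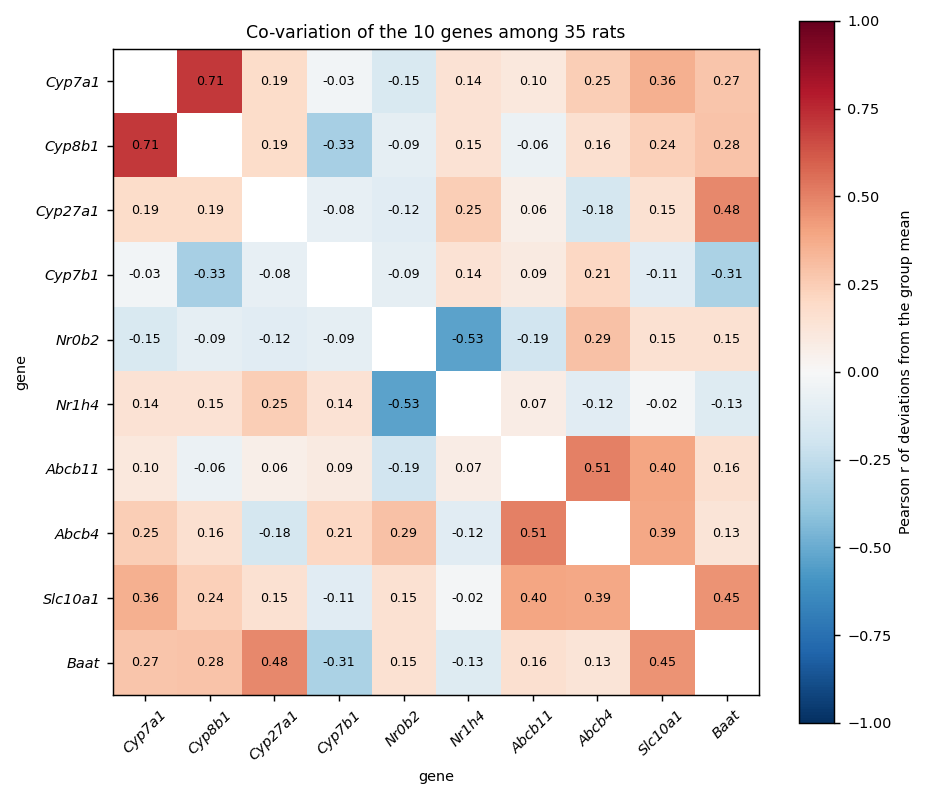
Pearson r between the deviations of the 10 genes from their group means in 35 rats, with genes on both axes and the value printed in each square. Cyp7a1 with Cyp8b1 is the highest at 0.71 and Nr0b2 with Nr1h4 the lowest at -0.53.

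Among the 18 regulators of the longer list, 3 rose and 2 fell with Cyp7a1, where 0.751% of all probe sets rose and 0.699% fell. Those shares also cover dim probe sets and those without a gene symbol, while the list holds 1 probe set per gene. The risers were Prox1, a homeobox co-repressor, with a slope of 0.18 ± 0.04 (adjusted p = 0.0108, limma), Hnf4a, a nuclear receptor that activates both enzymes, with 0.16 ± 0.04 (adjusted p = 0.0252, limma), and Nr5a2, which encodes LRH-1, with 0.10 ± 0.03 (adjusted p = 0.0469, limma; errors are SE). The fallers were Cebpb, a leucine zipper factor of the hepatocyte, with -0.40 ± 0.05 (adjusted p = 9.87e-06, limma), and Jun, a subunit of AP-1, with -0.36 ± 0.09 (adjusted p = 0.0332, limma). The list had a median slope of 0.02, against 0.00086 over all probe sets. Cebpb ran from 9.78 to 11.09 over the 35 rats with a median of 10.49, and its r with Cyp7a1 was -0.81. Its call held when each of the 35 rats was left out and with the Actb difference in the fit, where the adjusted p was 1.26e-04. With that difference Prox1 had a slope of 0.17 (adjusted p 0.0974), Hnf4a of 0.11 (0.292) and Jun of -0.38 (0.112), none of them called. Nr5a2 was called with a slope of 0.13 (0.0359), so 2 of 18 were. Without the 2 rats farthest from the median Cyp7a1 deviation the slopes were 0.15 for Prox1, 0.15 for Hnf4a, 0.10 for Nr5a2 and -0.26 for Jun, and of the 18 only Cebpb was called. Without replicate 5 at 0.07 mg/kg, the rat with the lowest Cyp7a1, only Cebpb of the 18 was called. The count was 2 without replicate 2 at 0.69 mg/kg, and 3 without vehicle replicate 4, replicate 2 or 4 at 68 mg/kg or replicate 5 or 6 at 680 mg/kg. With each of the 35 rats left out in turn, Prox1 was called in 34 fits, Hnf4a in 33, Jun in 28 and Nr5a2 in 12.

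Of 20 other synthesis genes Cyp8b1 was the only one called, with 14 slopes positive and 6 negative and a median slope of 0.01. None of 20 transporters was called, with 16 positive and 4 negative and a median slope of 0.03. The transporter of smallest p was Atp8b1, a phospholipid flippase whose loss causes cholestasis in humans, with a slope of 0.11 and an adjusted p of 0.059 (limma). It was followed by Abcc6 at 0.10 (adjusted p 0.247), Abcb1a at 0.08 (0.409) and Abcc2, the exporter of conjugates into bile, at 0.08 (0.430).

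Lists of processes known to touch Cyp7a1 are set beside the 1.45% of all probe sets called with it in either direction. That share covers dim probe sets and those without a gene symbol, while the lists hold 1 probe set per gene. With 1 probe set per gene in the fit, 312 were called, where 14217 genes have such a probe set. Of 18 clock genes, 12 had a negative slope and the median slope was -0.04. Among them 1 was called, Bhlhe40, a repressor of the clock loop, which fell with Cyp7a1 by 0.91 log2 units per log2 unit (slope -0.91 ± 0.11, SE, adjusted p = 1.90e-06, limma). Bhlhe40 ran from 4.52 to 7.69 over the rats with a median of 5.72. Its call held when each of the 35 rats was left out and with the Actb difference in the fit (adjusted p 5.17e-05). Of 15 genes of fasting and glucose production 2 fell: Fgf21, the fasting hormone of the liver, with -0.65 ± 0.16 (adjusted p = 0.0247, limma), and Pdk4, which spares glucose, with -0.34 ± 0.08 (adjusted p = 0.0284, limma; SE). Of 16 genes of cholesterol synthesis and uptake 1 fell, Stard4, a cholesterol carrier, with -0.25 ± 0.06 (SE, adjusted p = 0.0234, limma), while 14 of the 16 slopes were positive. Of 18 acute phase genes none was called, the smallest adjusted p being 0.106 for Il1r1. With the Actb difference in the fit the slope was -0.75 for Fgf21 (adjusted p 0.0549), -0.26 for Pdk4 (0.288) and -0.29 for Stard4 (0.0458), and only Stard4 was called. Without the 2 farthest rats the slopes were -0.60, -0.32 and -0.22 for these genes, and none was called (adjusted p 0.252, 0.305 and 0.317). With the replicate block the adjusted p was 0.0535 for Fgf21 and 0.0631 for Pdk4. Over the 19 alternatives other than leaving out single rats, Fgf21 was called in 10, Pdk4 in 9 and Stard4 in 14. Of the 35 fits without 1 rat, Fgf21 and Stard4 were each called in 33 and Pdk4 in 29. Without replicate 2 at 68 mg/kg the adjusted p was 0.148 for Fgf21 and 0.109 for Stard4, and without replicate 5 at 0.07 mg/kg it was 0.183 for Pdk4 and 0.0625 for Stard4.
Markers of other cells did not pass the test against Cyp7a1. Those of Kupffer cells and macrophages had 0 of 8 called with 8 negative slopes and a median slope of -0.10, and their mean level per group ran from 7.93 at 68 mg/kg to 8.24 in vehicle rats. Those of cholangiocytes, endothelium, stellate cells, lymphocytes, blood, exocrine pancreas and small intestine had none called, and of the 10 hepatocyte markers Hnf4a alone was. None of 9 pericentral hepatocyte markers was called, with 7 slopes positive and 2 negative. None of 10 periportal hepatocyte markers was called, with 6 positive and 4 negative. Both lists had a median slope of 0.03. The part of macrophage RNA in the slopes was not tested.

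The genes whose pattern was most like that of Cyp7a1 were found by Pearson r of the deviations over the 35 rats, among genes above the middle of the arrays. Being chosen for likeness they carry no test. The highest r were those of Tbx3, a T-box repressor, at 0.88, and Bcl6, a zinc finger repressor, at 0.87, then Efna5 and Rin2 at 0.84, Xiap at 0.84, Stbd1 at 0.83, Jade1 at 0.82 and Sall1 at 0.82. The lowest were Lurap1l at -0.86, Midn at -0.85, Bhlhe40 at -0.83, Xbp1, the stress factor of the endoplasmic reticulum, at -0.83, Sash1, Rtp3 and Sertad1 at -0.82 and Ell at -0.81. Bcl6 had the widest range of these, from 5.35 to 10.20 with a median of 7.99, and Tbx3 ran from 5.06 to 6.80 with a median of 6.31. The 3 rats of lowest Cyp7a1 relative to their group were also the 3 lowest for Bcl6 and for Tbx3. Without the 2 farthest rats Tbx3 and Bcl6 both gave r = 0.83 and Bhlhe40 -0.77. With Cyp8b1 the same genes gave r = 0.68 for Tbx3, 0.64 for Bcl6, 0.73 for Xiap, -0.78 for Lurap1l and -0.63 for Bhlhe40.

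**Figure D5:**
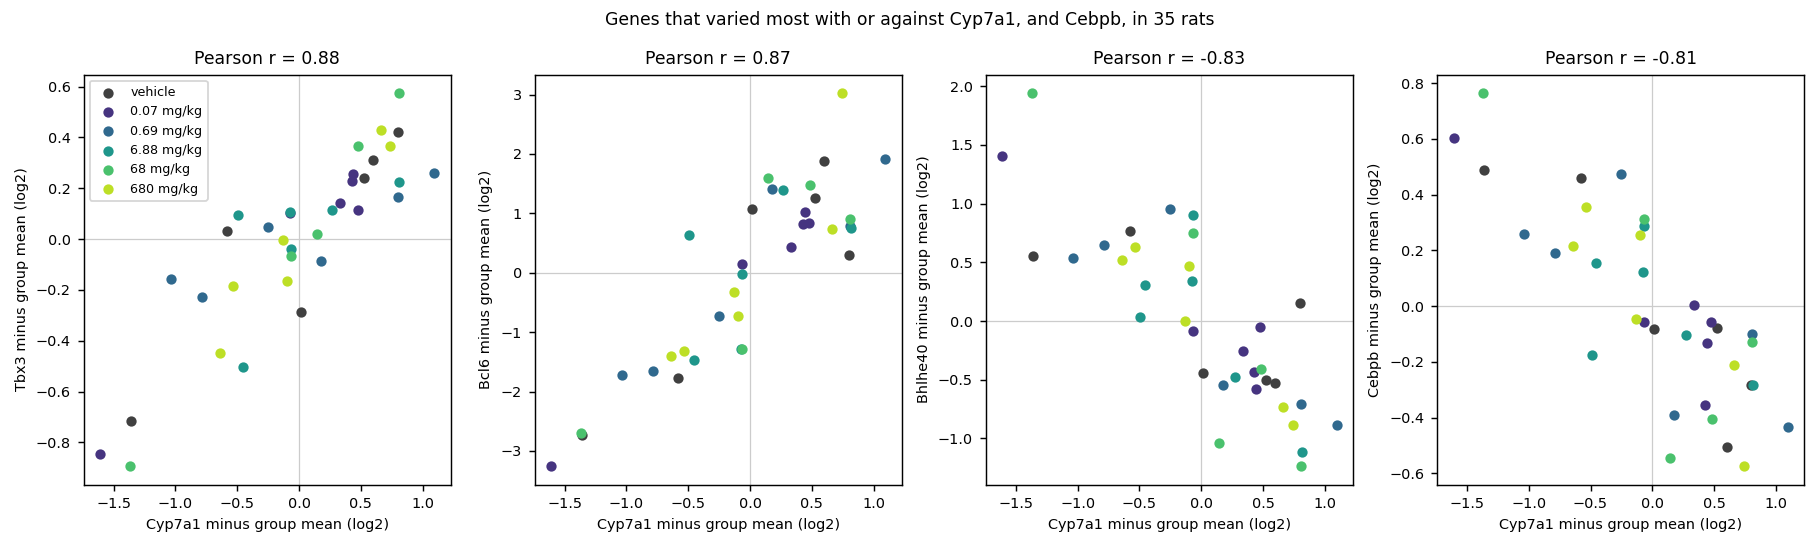
Deviation from the group mean of Tbx3, Bcl6, Bhlhe40 and Cebpb (y axes, log2, each with its own scale) against that of Cyp7a1 (x axes, log2) in 35 rats, coloured by dose. Rats of all 6 groups are shown together, with r of 0.88 for Tbx3, 0.87 for Bcl6, -0.83 for Bhlhe40 and -0.81 for Cebpb.

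The probe sets that moved with Cyp8b1 were fewer, 46 of 31041 (0.148%). Of them 31 were also called with Cyp7a1, which is 67.4% of the Cyp8b1 calls and 6.89% of the Cyp7a1 calls, and all 31 had the same sign with both. The 2 lists share the rats and the r of 0.71 between the enzymes. Nr0b2 had 97 probe sets called (0.312%), 17 rising (0.0548%) and 80 falling (0.258%), and Nr1h4 280 (0.902%), 238 rising (0.767%) and 42 falling (0.135%). Abcb4 had 21 (0.0677%), Cyp27a1 had 1 (0.00322%), and Cyp7b1, Abcb11, Slc10a1 and Baat had none. The genes most like Nr0b2 were Hes1, a repressor of the Notch pathway, with r = 0.78, Tgif1 at 0.71, Cirbp at 0.66 and Igfbp1 at 0.64, and those most opposed were Cep43 at -0.82, Edrf1 and Fhip1b at -0.78 and Mterf1 at -0.74. For Cyp8b1 they were Jak1 at 0.77, Icoslg at 0.75, Unc119b at 0.74 and Xiap at 0.73, against Tceal1 at -0.79, Lurap1l at -0.78, Id3 at -0.77 and Sumo2 at -0.68. These likenesses to Nr0b2 and Cyp8b1 were looked up after the values of the 10 genes were seen.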

How the data were processed

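Log2 values of 31099 probe sets on 35 arrays were used as deposited by the authors. RMA and the affy package are named in the submitters' processing notes, without versions or a build. The number of arrays limits precision. The log base was taken from RMA's convention. After 57 control probe sets were set aside, 31042 were tested, and 20826 had 1 gene symbol in the platform annotation. limma 3.58.1 in R 4.3.3 fitted all groups in 1 model with eBayes, Benjamini-Hochberg adjustment over all probe sets and a threshold of 0.05. R/maanova, which the series' design text names, was not used. Co-variation used deviations from group means, with 100000 two-sided permutations within groups (NumPy 2.4.6). The methods were tested on simulated data. Labels do not name cages or batches, so p-values measure the spread between these rats. The genes and lists were chosen with earlier results of these data known. Named genes were the 10, called genes of each list or those of smallest p, and the 8 highest and 8 lowest r with Cyp7a1.

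Same-numbered rats of different groups had mean correlations between -0.06 and 0.01 by number, against 0.003 for differently numbered rats. Replicate numbers therefore showed no pairing over the brighter probe sets as a whole. A pairing that touches few probe sets was not tested. Alternatives covered normalisation, filters, spread priors, array weights, a replicate block, RNA length, groups, and rats left out.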

Additional observations from a re-analysis of the deposited data

Results flagged for a closer look

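Of 60 sets of rats (10 genes in 6 groups), 6 had 1 rat far from the others by Dixon's test, which chance gives in about 1 of 20. Cyp7a1 read 9.39 in replicate 5 at 0.07 mg/kg, against 10.93 to 11.47 in the other rats of that dose. Cyp8b1 read 9.87 in replicate 2 at 68 mg/kg, with the others at 10.57 to 10.80, and 10.08 in vehicle replicate 4, with the others at 10.60 to 10.83. Nr1h4 read 9.64 in replicate 1 at 68 mg/kg, with the others at 9.38 to 9.40, and 9.30 in replicate 2 at 0.69 mg/kg, with the others at 9.54 to 9.67. Cyp7b1 read 2.18 in replicate 4 at 680 mg/kg, with the others at 2.61 to 2.78, all below the array medians.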

How the results depend on the processing

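Under the alternatives for the dose comparisons, 0 of 1035 values of a gene at a dose and 0 of 439 dose trends were called, and 53 and 10 of them changed sign. All 104 Nr0b2 values stayed below vehicle. No alternative called a probe set at any dose, along dose or over all doses. The 450 probe sets called with Cyp7a1 became 297 with the replicate block, 199 with the Actb difference in the fit, 109 without the 2 farthest rats and 1 in vehicle rats alone. Leaving out a group gave 227 without vehicle, 205 without 0.07 mg/kg, 235 without 0.69 mg/kg, 450 without 6.88 mg/kg, 270 without 68 mg/kg and 350 without 680 mg/kg. The count was higher with no group means in the fit (612), with dim probe sets left out (589), after a further quantile normalisation (509) and with an intensity trend and robust prior (479). Leaving out single rats gave 245 to 502, with 245 without replicate 5 at 0.07 mg/kg and 283 without replicate 2 at 68 mg/kg. The count of members called was 1 with each of the 35 rats left out and with the replicate block, and 0 with the Actb difference and in vehicle rats alone. The slope of Cyp8b1 stayed positive, 0.29 to 0.35 without single rats, and was 0.21 (adjusted p 0.0927) with the Actb difference and 0.32 (adjusted p 0.285) in the 6 vehicle rats alone. Fewer rats were tested in the last, and other causes were not tested. The regulators called were between 1 and 5 of 18 with single rats left out, 3 with the replicate block and 1 without the 2 farthest rats. Bhlhe40 and Cebpb lost their calls in vehicle rats alone. Another probe set of Cyp7a1 was not tried because it has 1.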
